A study of Rattus norvegicus with 9 samples.

Results

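The 9 genes described here encode angiogenic factors and their receptors: the ligands Vegfa, Vegfb, Vegfc, Angpt1, Angpt2, Angptl4 and Hgf and the receptors Kdr and Flt1. They were picked by symbol, with no measured value in the rule but with earlier results of these data known. They are 9 of the 35362 genes in the deposited table. All 9 passed the filter on low counts and were among the 14770 genes tested. RNA was sequenced from adipose stem cells (ASCs) that were cultured, without any drug, transgene or deletion, from 3 fat depots of male Sprague-Dawley rats aged 6 weeks. The rats were starved before the cells were isolated, and the cells were then kept in high glucose medium with fetal bovine serum. SASCs came from subcutaneous fat of the groin, PASCs from perirenal fat and EASCs from epididymal fat, with 3 samples per group. The cells were those that adhered to plastic after collagenase digestion, were collected at passage 3 and were not sorted by surface marker as far as the methods state, so each group can hold more than 1 cell type. The methods describe RNA taken from single culture wells, with 6 replicates in a group, whereas 3 samples per group are analysed here. They do not say whether the wells of a depot held cells of separate rats, and the p-values therefore measure only the spread between these samples, which may be technical.

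New vessels grow when secreted ligands reach receptors on endothelial cells. Vegfa drives endothelial growth mainly through the receptor tyrosine kinase Kdr (VEGFR2), while Flt1 (VEGFR1) binds Vegfa, Vegfb and Pgf, signals weakly and can act as a decoy. Angpt1 activates and Angpt2 mostly blocks the endothelial receptor Tek, Hgf acts through Met, and Angptl4 inhibits lipoprotein lipase. Adipose stromal cells are known as a source of several of these ligands.

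The total counts per sample ranged from 17591916 to 30299032. A count of 3 in a sample corresponded to 0.104 to 0.159 CPM (counts scaled to library size). It is given as a guide to counting error only, and no gene was filtered or called by it. Ribosomal RNA genes took 10.4 to 15.5% of all counts per SASCs sample, 22.4 to 32.9% per PASCs sample and 15.9 to 40.3% per EASCs sample. In each sample the count of Rn45s nearly equalled the summed counts of Rn18s and Rn28s (6064866 and 6061323 in EASCs 3). The same reads may thus be counted for several of these entries, which would raise the ribosomal shares and the total counts. Levels are given in FPKM, which is CPM divided by gene length and allows genes to be compared, or in CPM, and each ± is an SD with n = 3.

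Vegfb, Kdr and Angpt1 were lower in both visceral groups than in SASCs by more than 2-fold. In EASCs against SASCs, 2 genes rose (Flt1 and Angptl4) and 3 fell (Vegfb, Kdr and Angpt1) by more than 2-fold with an adjusted p under 0.05, whereas 27.8% of all genes tested met both thresholds (13.5% higher and 14.2% lower). In PASCs against SASCs, none rose and 5 fell (Vegfb, Kdr, Angpt1, Angpt2 and Hgf), beside 26.9% of all genes (12.0% higher and 14.9% lower). In EASCs against PASCs, 5 rose (Kdr, Flt1, Angpt2, Angptl4 and Hgf) and none fell, beside 7.39% of all genes (5.19% higher and 2.20% lower). At an adjusted p under 0.05 and any fold change, 8, 8 and 7 of the 9 genes passed in these comparisons, beside 69.7%, 69.2% and 30.7% of all genes. The median log2 fold change of the 9 genes was -0.45, -1.62 and 1.19, in the same order, and that of all genes was 0.01, -0.01 and -0.01. The samples of the groups did not overlap for 8 of the 9 genes in each comparison, where 72.1%, 71.6% and 41.2% of all genes did not overlap. The 3 comparisons draw on the same 9 samples, with each group shared between comparisons, so their counts are not independent.

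**Figure D1:**
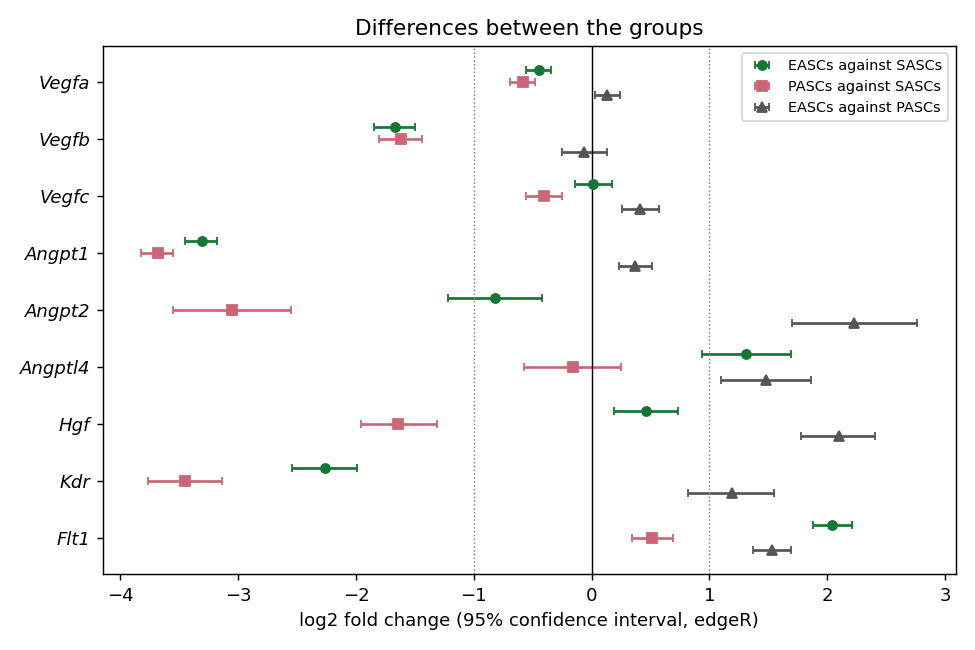
Fitted log2 fold change (horizontal axis) of each of the 9 genes in EASCs against SASCs (circles), PASCs against SASCs (squares) and EASCs against PASCs (triangles), with 95% confidence intervals from edgeR; the dotted lines mark a 2-fold change. Angpt1 and Kdr lie far to the left in both comparisons with SASCs, Flt1 lies to the right in all 3 comparisons, and Hgf lies right of 0 in EASCs (0.46) and left of it in PASCs (-1.64).

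Per length, in FPKM, Vegfa gave the highest level of the 9 genes in every group. In SASCs it was followed by Angpt1 (30.1 ± 1.22 FPKM) and by Vegfc (21.6 ± 1.02) and Vegfb (20.4 ± 1.38), whose samples overlapped. Angpt2, Kdr, Flt1, Hgf and Angptl4 lay between 1.9 and 3.31 FPKM in SASCs, and Angpt2 and Kdr, like Hgf and Angptl4, did not differ beyond their spread. In PASCs, Vegfa was followed by Vegfc (16.4 ± 0.513), Vegfb (6.66 ± 0.551), Flt1 (3.49 ± 0.185), Angpt1 (2.35 ± 0.129) and Angptl4 (1.71 ± 0.258). Hgf (0.635 ± 0.114), Angpt2 (0.385 ± 0.136) and Kdr (0.283 ± 0.0474) were the lowest, and the samples of Angpt2 overlapped with those of both Hgf and Kdr. In EASCs the order was Vegfa, Vegfc (21.8 ± 1.55), Flt1 (10.1 ± 0.512), Vegfb (6.38 ± 0.628), Angptl4 (4.82 ± 0.395), Angpt1 (3.03 ± 0.192), Hgf (2.69 ± 0.0918), Angpt2 (1.87 ± 0.272) and Kdr (0.638 ± 0.0626).

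**Figure D2:**
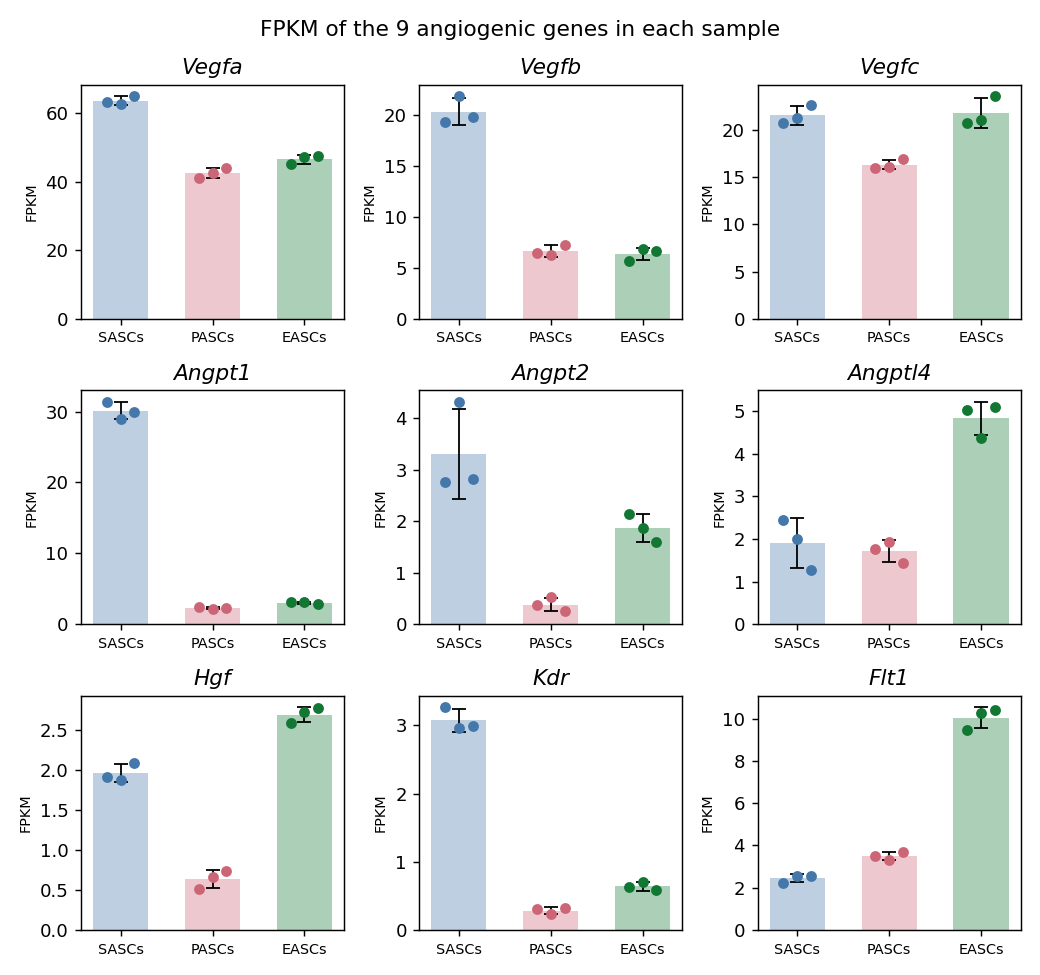
FPKM (vertical axis, linear and from 0) of each of the 9 genes, with points for the 3 samples, bars for the group means and error bars for the SD. Angpt1 is near 30 FPKM in SASCs and near 2 to 3 FPKM in both visceral groups, and Flt1 is highest in EASCs.

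Vegfa, the main growth factor for endothelial cells, lies on chromosome 9 from 17340341 to 17355681 on the plus strand in the deposited table. It measured 63.4, 62.6 and 65.0 FPKM in the 3 SASCs samples, 41.0, 42.5 and 44.0 FPKM in PASCs and 45.1, 47.3 and 47.4 FPKM in EASCs. All SASCs samples were above all visceral samples, and the PASCs and EASCs ranges lay side by side without overlap. The log2 fold change was -0.45 (SE 0.0519, adjusted p = 1.61e-08, edgeR) in EASCs and -0.58 (SE 0.0521, adjusted p = 1.18e-10, edgeR) in PASCs against SASCs, both less than 2-fold. Between EASCs and PASCs it was 0.13, with an interval of 0.03 to 0.24 and an adjusted p of 0.0549 (edgeR). Without PASCs replicate 3 or without EASCs replicate 1 the difference was 0.16 and the adjusted p 0.0313 or 0.0492 (edgeR). On total counts without TMM scaling it was 0.06 (adjusted p = 0.882, edgeR).

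Vegfb, a ligand of Flt1 linked to fatty acid handling in endothelium, lies on chromosome 1 from 222237000 to 222242742 on the minus strand. It measured 19.4, 21.9 and 19.8 FPKM in SASCs, 6.44, 6.26 and 7.29 FPKM in PASCs and 5.66, 6.82 and 6.66 FPKM in EASCs. Both visceral groups were far below SASCs and overlapped each other. Vegfb fell 3.19-fold in EASCs (log2 fold change -1.67, SE 0.0866, adjusted p = 9.16e-16, edgeR) and 3.07-fold in PASCs (-1.62, SE 0.0863, adjusted p = 1.95e-15, edgeR). The difference between EASCs and PASCs was -0.06 on the log2 scale, with a 95% interval of -0.25 to 0.13.

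Vegfc, the lymphatic growth factor that binds Flt4 and also Kdr, lies on chromosome 16 from 40440371 to 40555178 on the minus strand. It measured 20.7, 21.3 and 22.7 FPKM in SASCs, 16.0, 16.1 and 16.9 FPKM in PASCs and 20.7, 21.1 and 23.6 FPKM in EASCs. SASCs and EASCs overlapped fully, and all PASCs samples were lower. The log2 fold change against SASCs was 0.01 in EASCs (95% interval -0.14 to 0.17, adjusted p = 0.879, edgeR) and -0.40 in PASCs (SE 0.0756, adjusted p = 3.81e-05, edgeR), less than 2-fold. EASCs exceeded PASCs by 0.41 (adjusted p = 9.14e-05, edgeR). On total counts without TMM scaling these values were 0.33 (adjusted p = 0.2, edgeR) between EASCs and PASCs and -0.39 (adjusted p = 0.033, edgeR) in EASCs against SASCs.

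The other VEGF ligands moved in opposite directions. Vegfd, listed under its older symbol Figf and like Vegfc a lymphatic factor, was the most abundant VEGF transcript per length, at 216 ± 7.92 FPKM in SASCs, 71.0 ± 6.47 in PASCs and 97.7 ± 5.87 in EASCs. It fell by 1.15 on the log2 scale in EASCs (adjusted p = 3.79e-15, edgeR) and by 1.61 in PASCs (adjusted p = 2.62e-18, edgeR). Pgf, placenta growth factor and which binds Flt1 but not Kdr, had counts of 23, 20 and 11 in the SASCs samples. The counts were 262, 236 and 113 for PASCs, and 346, 425 and 410 for EASCs. It rose by 4.48 in EASCs (SE 0.207, adjusted p = 7.25e-17, edgeR) and by 3.49 in PASCs (SE 0.22, adjusted p = 7.87e-14, edgeR). The summed FPKM of the 5 VEGF genes was 322 ± 9.15 in SASCs, 142 ± 7.58 in PASCs and 183 ± 10 in EASCs. Vegfa made up 19.8% of that sum in SASCs, 30% in PASCs and 25.5% in EASCs, Vegfd 67.1%, 50% and 53.3%, and Pgf 0.145%, 3.77% and 5.81%.

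**Figure D3:**
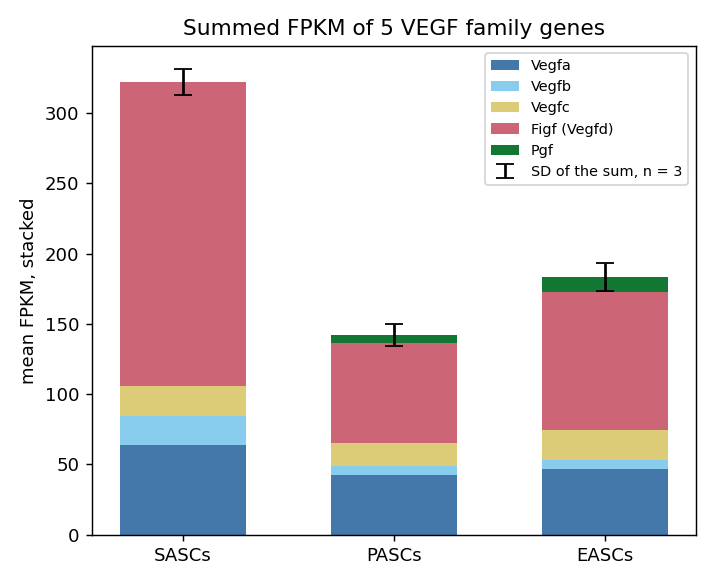
Mean FPKM of Vegfa, Vegfb, Vegfc, Vegfd (Figf) and Pgf stacked for each group (vertical axis from 0), with the SD of the summed value over 3 samples as the error bar. The SASCs column (322) is the tallest, Vegfd is its biggest piece, and Pgf is visible only in the PASCs and EASCs columns.

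Kdr, the principal signalling receptor for Vegfa, lies on chromosome 14 from 34727677 to 34787127 on the plus strand. It measured 3.27, 2.96 and 2.99 FPKM in SASCs, 0.306, 0.229 and 0.315 FPKM in PASCs and 0.634, 0.703 and 0.578 FPKM in EASCs, from 35 to 553 counts per sample. The 3 groups were fully separate, with SASCs highest and PASCs lowest. Kdr fell 4.81-fold in EASCs (log2 fold change -2.26, SE 0.134, adjusted p = 1.79e-14, edgeR) and 10.9-fold in PASCs (-3.45, SE 0.152, adjusted p = 2.51e-17, edgeR). It was 2.28-fold higher in EASCs than in PASCs (1.19, SE 0.176, adjusted p = 5.35e-06, edgeR). In bulk cultures such as these, fewer cells of a type that carries Kdr and less Kdr RNA per cell cannot be told apart.

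Flt1, on chromosome 12 from 9033998 to 9203771 on the plus strand, went the other way. It measured 2.24, 2.57 and 2.54 FPKM in SASCs, 3.51, 3.30 and 3.67 FPKM in PASCs and 9.49, 10.3 and 10.4 FPKM in EASCs. The groups were fully separate, with EASCs well above both others. Flt1 rose 4.12-fold in EASCs (log2 fold change 2.04, SE 0.0809, adjusted p = 2.26e-18, edgeR) and was 2.89-fold higher there than in PASCs (1.53, SE 0.078, adjusted p = 6.07e-15, edgeR). Against SASCs, PASCs differed by 0.51 (SE 0.0856, adjusted p = 7.38e-06, edgeR), less than 2-fold, and by 0.19 (adjusted p = 0.356, edgeR) when total counts were used without TMM scaling. The ratio of Flt1 to Kdr per length was 0.802 ± 0.1 in SASCs, 12.5 ± 1.65 in PASCs and 15.9 ± 1.88 in EASCs. Counts per gene do not separate the membrane form of Flt1 from its soluble form.

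Because the receptors moved in opposite directions between SASCs and EASCs, the sequences just before their annotated starts are shown beside that of their shared ligand Vegfa. They are the 250 bases upstream of the gene start in RefSeq (build GRCr8), 5′ to 3′ on the strand of the gene. For Vegfa this is chr9:22452604-22452853, plus strand, for Kdr chr14:32571813-32572062, plus strand, and for Flt1 chr12:12333180-12333429, plus strand. Capitals mark matches on either strand to GGGCGG, known as the GC box. They also mark matches to the TATA box, TATAAA.
Vegfa: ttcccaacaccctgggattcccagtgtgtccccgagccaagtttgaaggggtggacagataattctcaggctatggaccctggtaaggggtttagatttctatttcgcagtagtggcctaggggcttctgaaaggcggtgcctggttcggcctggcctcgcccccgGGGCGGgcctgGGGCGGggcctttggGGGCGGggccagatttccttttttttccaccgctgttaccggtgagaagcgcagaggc
Kdr: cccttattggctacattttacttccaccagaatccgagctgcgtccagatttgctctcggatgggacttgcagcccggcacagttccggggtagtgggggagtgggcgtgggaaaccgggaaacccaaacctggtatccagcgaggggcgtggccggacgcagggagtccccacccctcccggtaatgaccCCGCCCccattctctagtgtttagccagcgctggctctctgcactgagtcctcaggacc
Flt1: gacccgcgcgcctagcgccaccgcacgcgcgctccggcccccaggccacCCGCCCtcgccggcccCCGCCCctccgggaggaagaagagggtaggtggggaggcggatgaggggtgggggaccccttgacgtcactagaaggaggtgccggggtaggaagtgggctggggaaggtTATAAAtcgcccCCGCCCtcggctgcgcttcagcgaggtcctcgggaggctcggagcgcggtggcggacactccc
The Vegfa window held 3 GC boxes, that of Kdr 1, and that of Flt1 3 together with a TATA box. RefSeq windows were found for 7 of the 9 genes, and 6 of those 7 held GGGCGG, against 30.5% of all 33469 windows of the same length. TATAAA was in 2 of the 7 (Flt1 and Angptl4), against 12.9% of all windows. A match describes the letters only.

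Kdr and Angpt2 are typical of endothelial cells, so markers of that cell type were read beside them. Of 17 endothelial markers tested, 1 rose and 14 fell in PASCs against SASCs (median log2 fold change -2.09), 1 rose and 1 fell in EASCs against SASCs (-0.24), and 11 rose and none fell in EASCs against PASCs (1.97). In these comparisons 26.9%, 27.8% and 7.39% of all genes were called in either direction. Pecam1, a junction molecule of endothelium, measured 9.29 to 11.7 CPM in SASCs, 0.688 to 1.34 CPM for PASCs and 5.79 to 6.82 CPM for EASCs. Cdh5, the cadherin of endothelial junctions, measured 8.2 to 9.76, 0.847 to 1.27 and 9.33 to 10.6 CPM. Vwf, von Willebrand factor, measured 2.29 to 2.84, 0.149 to 1.03 and 2.37 to 2.59 CPM. The summed level of the 19 listed markers was 94.9 to 101 CPM in SASCs, 58.6 to 63.0 CPM for PASCs and 80.5 to 89.1 CPM for EASCs, and none was at 0 in all samples. In PASCs most of that sum came from Egfl7 (30.1 CPM in SASCs and 27.7 in PASCs), Ptprb (7.49 and 12.4) and Tek (2.55 and 8.29). These were not among the 14 that fell there, so the sum understates the fall of the other markers. In EASCs against SASCs, where Kdr and the endothelial marker Mmrn2 (-1.31) fell and Tek rose, Pecam1 differed by -0.71 (adjusted p = 0.000162, edgeR), Cdh5 by 0.09 (adjusted p = 0.561, edgeR) and Vwf by -0.03 (adjusted p = 0.928, edgeR). At an adjusted p under 0.05 and any fold change, 2 of the 17 markers were higher and 5 lower in that comparison. The part of endothelial cells in the values of Kdr and Angpt2 was not tested. The count for EASCs against SASCs was 4 without EASCs replicate 1, and it was 7 (1 higher, 6 lower) on total counts without TMM scaling.

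**Figure D4:**
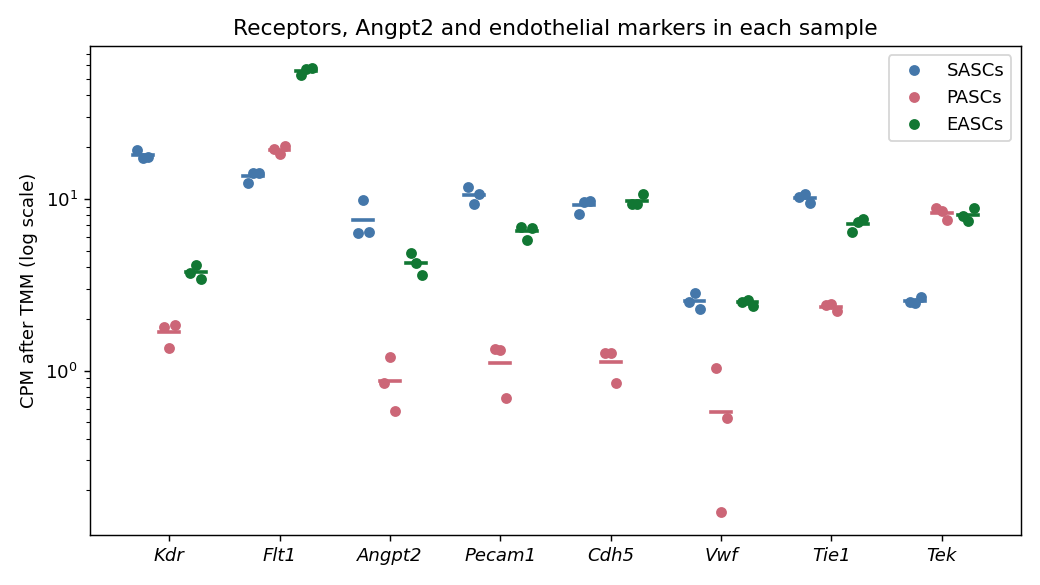
CPM after TMM scaling (vertical axis, log scale) of Kdr, Flt1, Angpt2, the endothelial markers Pecam1, Cdh5 and Vwf and the receptors Tie1 and Tek in each sample, with a line at each group mean. Pecam1, Cdh5, Vwf and Tie1 are lowest in PASCs, while Flt1 is not and Tek is lowest in SASCs.

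Markers of other cell types also differed between the depots. Beside the counts below, 27.8% of all genes were called in EASCs and 26.9% in PASCs against SASCs, and 7.39% in EASCs against PASCs. Of 10 leukocyte markers tested, 9 rose and none fell in EASCs and 5 rose and none fell in PASCs against SASCs, and their summed level was 53.2 to 59.8 CPM in SASCs, 128 to 134 CPM for PASCs and 190 to 204 CPM for EASCs, with Cd3e and Ms4a1 at 0 in every sample. Monocytes and macrophages can carry Flt1, and Ptprc, the general leukocyte antigen, was at 0.764 to 1.27 CPM in SASCs, 1.38 to 1.91 CPM for PASCs and 2.84 to 3.22 CPM for EASCs. Of 12 mural cell markers, 6 rose and 4 fell in EASCs and 5 rose and 4 fell in PASCs, and their sum was 709 to 733, 3170 to 3420 and 6490 to 6840 CPM in SASCs, PASCs and EASCs. In PASCs and EASCs most of that sum came from the contractile genes Acta2 (55.7, 910 and 2200 CPM in the 3 groups) and Tagln (74.2, 1890 and 3580 CPM), whereas the 4 that fell in both visceral groups were Rgs5, Kcnj8, Abcc9 and Notch3, genes typical of pericytes and other mural cells. Of 8 mesothelial markers, 7 rose in EASCs and 8 in PASCs (sums of 21.6 to 23.2, 227 to 229 and 192 to 206 CPM), and all 7 adipocyte markers tested fell in both (168 to 181, 43.5 to 49.5 and 24.2 to 25.5 CPM). Of 7 ASC markers, 2 rose and 1 fell in EASCs, and none rose and 2 fell in PASCs. In EASCs against PASCs, 7 of the 12 mural markers rose and none fell, and 1 of the 10 leukocyte markers rose and none fell, with 8 of the 10 higher at an adjusted p under 0.05 and any fold change. Of the mesothelial markers 1 rose and 1 fell, of the adipocyte markers none rose and 3 fell, and of the ASC markers 3 rose and none fell in that comparison. The part of these cell types in the results for the 9 genes, 5 of which rose in EASCs against PASCs, was not tested.

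Angpt1, the ligand that activates Tek and steadies vessels, lies on chromosome 7 from 81338327 to 81592641 on the minus strand. It measured 31.4, 29.0 and 30.0 FPKM in SASCs, 2.48, 2.23 and 2.33 FPKM in PASCs and 3.14, 3.14 and 2.81 FPKM in EASCs. SASCs stood far above both visceral groups, and EASCs lay just above PASCs. Angpt1 fell 9.94-fold in EASCs (log2 fold change -3.31, SE 0.0646, adjusted p = 2.91e-25, edgeR) and 12.8-fold in PASCs (-3.68, SE 0.0664, adjusted p = 8.12e-26, edgeR). The difference of EASCs from PASCs was 0.37 (adjusted p = 0.000139, edgeR), less than 2-fold, and 0.31 (adjusted p = 0.256, edgeR) without TMM scaling.

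Angpt2, the ligand that mostly opposes Angpt1 at Tek, lies on chromosome 16 from 75966480 to 76016147 on the plus strand. It measured 2.77, 4.32 and 2.82 FPKM in SASCs (131 to 231 counts), 0.371, 0.527 and 0.257 FPKM in PASCs (11 to 32 counts) and 2.14, 1.86 and 1.6 FPKM in EASCs (81 to 116 counts). The groups did not overlap, and SASCs replicate 2 was the highest sample. Angpt2 fell 8.29-fold in PASCs against SASCs (log2 fold change -3.05, SE 0.244, adjusted p = 1.19e-11, edgeR) and was 4.69-fold higher in EASCs than in PASCs (2.23, SE 0.256, adjusted p = 7.6e-08, edgeR). In EASCs against SASCs it differed by -0.82 (SE 0.196, adjusted p = 0.000576, edgeR), which of the alternatives run passed 2-fold only without TMM scaling (-1.22). Angpt2 lies within Mcph1, which is on the opposite strand and had 97 to 286 counts per sample, and without a stated strand setting the reads of the pair cannot be told apart.

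The ratio of Angpt1 to Angpt2 per length was 9.56 ± 2.49 in SASCs, 6.66 ± 2.42 in PASCs and 1.64 ± 0.152 in EASCs. Angpt4, a further ligand of Tek, fell by 2.25 on the log2 scale in EASCs (adjusted p = 1.48e-21, edgeR) and by 1.29 in PASCs (adjusted p = 1.17e-16, edgeR). It was at 56.7 FPKM in SASCs, 23.1 in PASCs and 12 in EASCs, 1.88, 9.89 and 3.97 times the Angpt1 level in the same samples. The receptors moved in opposite directions. Tek rose by 1.66 in EASCs (adjusted p = 2.31e-10, edgeR) and by 1.71 in PASCs (adjusted p = 1.28e-10, edgeR), whereas its partner Tie1 fell by 2.09 in PASCs (adjusted p = 1.24e-12, edgeR) and differed by -0.50 in EASCs.

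Hgf, a growth and motility factor for endothelial and epithelial cells, lies on chromosome 4 from 15435460 to 15505378 on the minus strand. It measured 1.91, 1.88 and 2.09 FPKM in SASCs, 0.509, 0.664 and 0.733 FPKM in PASCs and 2.59, 2.72 and 2.77 FPKM in EASCs. The groups were fully separate, with EASCs highest and PASCs lowest. Hgf fell 3.11-fold in PASCs (log2 fold change -1.64, SE 0.157, adjusted p = 4.95e-10, edgeR) and was 4.27-fold higher in EASCs than in PASCs (2.1, SE 0.153, adjusted p = 1.21e-11, edgeR). In EASCs against SASCs it differed by 0.46 (SE 0.133, adjusted p = 0.00328, edgeR), and by 0.06 (adjusted p = 0.805, edgeR) without TMM scaling.

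The receptor of Hgf, Met, fell in both visceral groups, by 1.40 in EASCs (adjusted p = 8e-11, edgeR) and by 1.42 in PASCs (adjusted p = 6.66e-11, edgeR). The ratio of Hgf to Met per length was 0.748 ± 0.0627 in SASCs, 0.641 ± 0.0686 in PASCs and 2.76 ± 0.528 in EASCs. Hgf is secreted as a precursor that proteases cleave. Of 6 tested genes of a list of 12 for this activation, 2 rose and 1 fell in EASCs, and 2 rose and 2 fell in PASCs. That was 50% and 66.7% of the 6, beside 27.8% and 26.9% of all genes. The protease Plau fell by 2.05 and 2.84, its receptor Plaur rose by 1.75 and 1.38, and the membrane protease St14 rose by 1.5 and 1.27 in EASCs and PASCs. Plat fell by 1.73 in PASCs and differed by -0.11 in EASCs.

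Angptl4, on chromosome 7 from 18627814 to 18634043 on the minus strand, is a secreted inhibitor of lipoprotein lipase that fasting, PPARs and low oxygen are known to induce. It measured 2.45, 2.00 and 1.27 FPKM in SASCs, 1.76, 1.94 and 1.43 FPKM in PASCs and 5.01, 4.37 and 5.09 FPKM in EASCs, from 48 to 221 counts per sample. SASCs and PASCs overlapped, and all EASCs samples were above both. Angptl4 rose 2.48-fold in EASCs against SASCs (log2 fold change 1.31, SE 0.181, adjusted p = 3.81e-07, edgeR) and was 2.78-fold higher there than in PASCs (1.48, SE 0.185, adjusted p = 3.26e-07, edgeR). Without TMM scaling the first of these was 0.92, less than 2-fold. PASCs differed from SASCs by -0.16 (95% interval -0.57 to 0.25, adjusted p = 0.477, edgeR).

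The upstream window of Angptl4 is shown because the gene is known to answer to both hypoxia and PPARs, whose genes are read next. It is chr7:15258682-15258931, minus strand (RefSeq, GRCr8), 250 bases before the start, with capitals for ACGTG (the core of a hypoxia response element), GGGCGG and TATAAA on either strand.
Angptl4: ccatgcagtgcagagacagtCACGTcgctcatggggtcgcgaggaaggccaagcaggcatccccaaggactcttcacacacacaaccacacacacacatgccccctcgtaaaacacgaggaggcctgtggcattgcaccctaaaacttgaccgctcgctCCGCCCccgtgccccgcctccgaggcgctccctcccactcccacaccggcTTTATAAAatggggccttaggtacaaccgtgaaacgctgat
ACGTG was found once, on the opposite strand, and in none of the other 6 windows of the 9 genes. It was in 16.6% of all 33469 windows. TATAAA matched on both strands at overlapping positions. The PPAR element, a direct repeat of AGGTCA with any 1 base between, was in none of the 7 windows and in 0.0508% of all windows.

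Lpl, the lipase that Angptl4 inhibits, fell by 3.94 on the log2 scale in EASCs (adjusted p = 2.12e-25, edgeR) and by 3.90 in PASCs (adjusted p = 3.35e-25, edgeR), from 1720 CPM in SASCs to 112 and 115 CPM. Of 6 tested genes of the angiopoietin-like list, which includes Lpl, none rose and 4 fell in EASCs, and none rose and 3 fell in PASCs. Among all genes, 14.2% and 14.9% fell. Angptl2 fell by 2.34 and 1.98, and Angptl1, with 1 to 6 counts in EASCs, fell there by 3.12. Gpihbp1, which anchors Lpl to capillary endothelium, had 58 to 117 counts per SASCs sample, 18 to 30 per EASCs sample, and 6, 0 and 0 for the PASCs.

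Since PPARs induce Angptl4, their genes were read beside it. Of 5 PPAR and partner receptors tested, 4 fell in EASCs and 2 in PASCs, and none rose. Beside these and the target genes below, 14.2% and 14.9% of all genes fell in the same comparisons. Pparg, the adipogenic regulator, fell by 2.23 and 1.67, Ppara by 1.78 and 1.80, and Ppard by 1.22 in EASCs and 0.54 in PASCs, the last less than 2-fold. The receptor partner Rxra fell by 1.30 in EASCs. Of 14 PPAR target genes tested, 6 fell and none rose in each visceral group, with Lpl, the lipid droplet proteins Plin1 (-4.45 in EASCs, -2.93 in PASCs) and Cidec (-4.40, at 2 to 4 counts per sample, and -2.34) and the fatty acid binding protein Fabp4 (-3.20 and -2.63) falling most in EASCs, where Angptl4 rose. The 6 were the same in both groups, the others being Adipoq and Plin4. Adipoq, Plin1, Cidec and Fabp4 are also on the list of adipocyte markers, of which all 7 tested fell, and the part of adipocyte-like cells in these values was not tested. The fatty acid oxidation genes Cpt1a (0.82 and 0.06), Acadm (-0.11 and -0.04) and Slc25a20 (0.51 and 0.26) and the droplet protein Plin2 (-0.10 and -0.18) did not pass 2-fold.

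Of 24 targets of hypoxia-inducible factors tested, 7 rose and 3 fell in EASCs and 6 rose and 2 fell in PASCs (median log2 fold changes 0.65 and 0.64). At an adjusted p under 0.05 and any fold change, 17 were higher and 5 lower in EASCs, and 16 were higher and 4 lower in PASCs. The 2-fold counts were 41.7% and 33.3% of the list, beside 27.8% and 26.9% of all genes, and 69.7% and 69.2% of all genes passed at any fold change. The carbonic anhydrases Car12 (3.74 and 1.84) and Car9 (1.29 and 2.01) rose, while the vasodilator peptide Adm (-2.61 and -3.26) and the prolyl hydroxylase Egln3 (-2.01 and -2.48) fell. In EASCs the count was 4 (1 higher, 3 lower) without TMM scaling. Of 9 regulators tested, none rose, 2 fell in EASCs and 3 fell in PASCs, each time including Egln3, which is also on the list of targets. Hif1a differed by -0.41 and -0.39, each less than 2-fold, Epas1 (HIF-2 alpha, abundant in endothelium) by -0.65 in EASCs and fell by 2.34 in PASCs, and Arnt2 fell by 2.92 and 4.23.

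The partner list of 15 receptors, co-receptors and related ligands had 3 genes higher and 3 lower in EASCs against SASCs, 3 higher and 7 lower in PASCs against SASCs, and 2 higher and none lower in EASCs against PASCs, where the count was 4 without PASCs replicate 1. Its median log2 fold changes were -0.50, -0.69 and 0.39. Calls covered 40%, 66.7% and 13.3% of the list, beside 27.8%, 26.9% and 7.39% of all genes. Tek, Tie1, Ptprb and Flt4 are also on the list of endothelial markers. Besides the genes above, the guidance ligand Sema3e rose by 4.06 in EASCs and 3.33 in PASCs, from 3 to 6 counts in each SASCs sample. Its receptor Plxnd1 fell by 2.32 in PASCs and differed by -0.86 in EASCs. The lymphatic receptor Flt4 fell by 1.72 in PASCs (adjusted p = 0.000463, edgeR), at 0.52 CPM there. The co-receptor Nrp1 differed by -0.13 (adjusted p = 0.0503, edgeR) in EASCs and 0.11 (adjusted p = 0.105, edgeR) in PASCs, and Nrp2 by -0.83 and -0.69.

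Among 23 other angiogenic factors tested, 8 rose and 7 fell in EASCs and 7 rose and 9 fell in PASCs. Calls covered 65.2% and 69.6% of this list, beside 27.8% and 26.9% of all genes. Adm is also on the list of hypoxia targets and Egfl7 on that of endothelial markers. The matrix protein Ctgf rose by 3.27 and 2.73 and the EGF receptor ligand Tgfa by 2.66 and 2.06, whereas the growth factor Pdgfd fell by 3.46 and 2.32 and the Notch ligand Dll4 by 1.32 and 3.86. Of 13 antiangiogenic factors, 3 rose and 3 fell in EASCs, and 2 rose and 5 fell in PASCs (46.2% and 53.8% called). Thbs1, thrombospondin 1, rose by 1.81 and 1.82, and Col18a1, the precursor of endostatin, fell by 2.19 and 3.17. Ism1 fell by 3.16 and 3.63, and Adamts8, a protease that inhibits vessel growth, had 2 to 4 counts per SASCs sample, 22 to 56 per PASCs sample and 29 to 47 per EASCs sample.

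**Figure D5:**
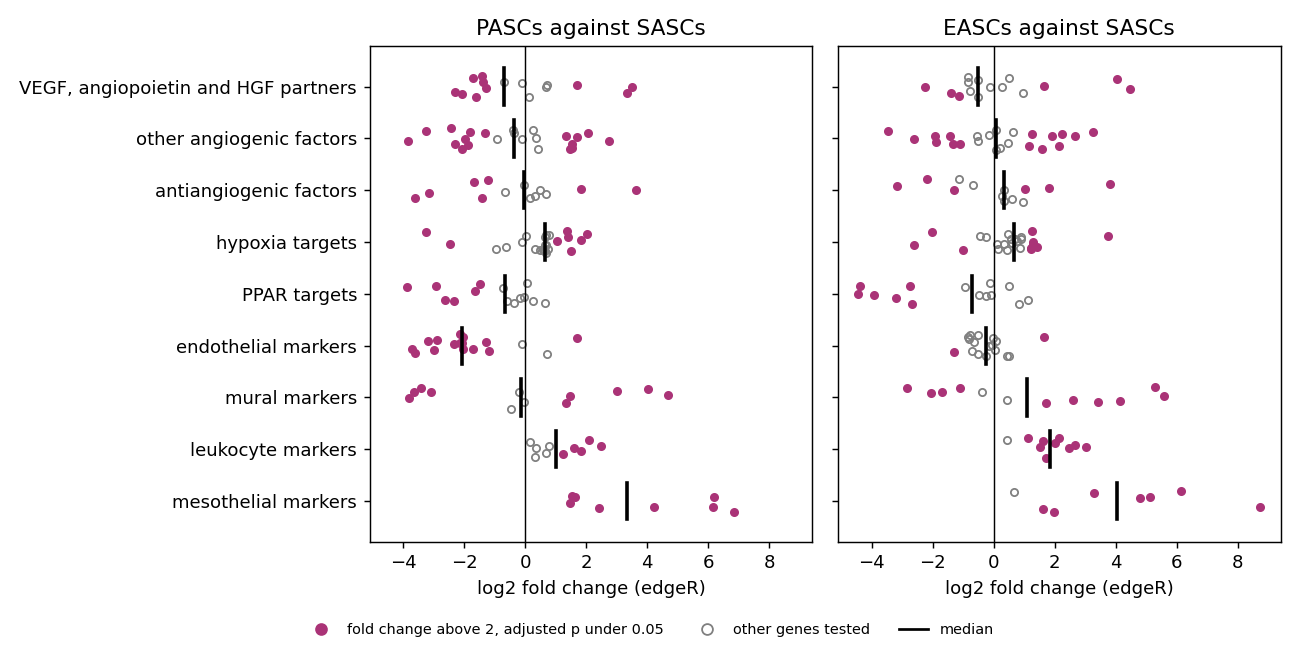
Fitted log2 fold change (horizontal axis) of each tested gene of 9 lists in PASCs (left) and EASCs (right) against SASCs, with filled points for genes past both thresholds, open points for the others and a bar at the list median. The endothelial markers lie mostly left of 0 in PASCs (median -2.09) and around it in EASCs (median -0.24), and the leukocyte and mesothelial markers lie to the right in both.

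Each of the 9 genes had other genes with nearly the same pattern over the 9 samples, measured by Pearson correlation of log2 CPM. Since the samples form 3 groups, these correlations mainly describe group means. The closest were Cyp1b1, Ccpg1 and Tmem2 for Vegfa, Clasrp, Myc and Ror1 for Vegfb, and Epha4, Fbn1 and Sh3rf1 for Vegfc. They were Pcsk6, C7 and Cxcl12 for Kdr, Dmpk, Porcn and Cux1 for Flt1, and Rin2, Mest and Cd302 for Angpt1. For Angpt2 they were Clec10a, Bcl6b and Emcn, for Angptl4 Rab39a, Shisa5 and Sorbs2, and for Hgf Apln, Timp3 and Lbp. The correlation ranged from 0.961 for Sorbs2 with Angptl4 to 0.999 for Mest with Angpt1, apart from Rin2, which was closer still.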

How the data were processed

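RNA of 9 cultured samples (3 SASCs, 3 PASCs, 3 EASCs) was sequenced as paired ends. The authors trimmed reads with cutadapt and the FastX-Toolkit and aligned them with TopHat, and deposited raw counts per gene with each gene's position and its length in bases. The study's methods name build rn6 and the submitters' processing notes name rn5, so positions are given as deposited. The counting tool, its strand setting and its treatment of shared reads are not given in the sources used here. 

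From these counts, edgeR 4.0.16 (R 4.3.3) fitted 1 model to all 9 samples, with TMM scaling, its default low-count filter (14770 of 35362 genes kept), the quasi-likelihood F test and Benjamini-Hochberg adjustment within each comparison over all genes tested. A gene was called at a fold change over 2 with its adjusted p under 0.05. SEs came from the F statistics, and CPM and FPKM from TMM-scaled totals and the table's lengths. DESeq2 1.42.0 was an alternative. Total counts were 17591916 to 30299032 per sample.

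Named outside the 9 genes were their receptors and closest ligands, Hif1a, Epas1, Pparg, Ppard, Lpl, up to 4 genes per list with the largest called changes against SASCs, defining cell type markers and, for likeness, the 3 genes with the highest correlation. Mmrn2, the contractile and other mural genes, and the PPAR targets Adipoq, Plin4, Plin2, Cpt1a, Acadm and Slc25a20 were named after their values were seen. The 9 genes and the lists were chosen with earlier results of these data known.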

Additional observations from a re-analysis of the deposited data

Results flagged for a closer look

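Hgf drew attention because the visceral groups differed from SASCs in opposite directions. Against SASCs its log2 fold change was 0.46 in EASCs and -1.64 in PASCs, with every EASCs sample above and every PASCs sample below every SASCs sample, and the direct test of EASCs against PASCs gave 2.1 (adjusted p = 1.21e-11, edgeR). Without TMM scaling the EASCs difference from SASCs was 0.06 (adjusted p = 0.805, edgeR), while that between EASCs and PASCs was 2.02.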

How the results depend on the processing

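The number of the 9 genes past both thresholds was 5 in each comparison, and leaving out each replicate in turn gave 5 to 5. At an adjusted p under 0.05 and any fold change it was 8 for EASCs and 8 for PASCs against SASCs. The replicate numbers did not pair the samples (correlations of same-numbered samples -0.0348 to 0.038); with the number as a replicate block the counts were again 5, and the block moved 1 call at the adjusted p alone, Vegfa between EASCs and PASCs (0.13, adjusted p = 0.0354, edgeR), which also passed with DESeq2 (0.0309) and without ribosomal RNA genes (0.0457) but was 0.06 without TMM scaling (adjusted p = 0.882, edgeR). Total counts without TMM scaling shifted the median of all genes by -0.39 in EASCs and -0.33 in PASCs against SASCs, and the split in EASCs against SASCs went from 2 higher and 3 lower to 1 higher and 4 lower (all genes: 2001 and 2103 to 1349 and 3425; PASCs: 1779 and 2200 to 1262 and 3165). Under that scaling the adjusted p also missed for Vegfc (0.33) and Angpt1 (0.31) between EASCs and PASCs, and 7 endothelial markers and 4 hypoxia targets were called in EASCs against SASCs instead of 2 and 10. Leaving out 1 replicate, the endothelial count in EASCs against SASCs reached 4 and the partner count in EASCs against PASCs reached 4. Vegfc in EASCs against SASCs was 0 with RLE factors, -0.01 with DESeq2 and -0.39 (adjusted p = 0.033, edgeR) without TMM, and -0.04 to 0.05 with 1 replicate left out. With 1 replicate left out, Angptl4 in PASCs against SASCs ranged from -0.37 to 0.07 (0.07 without SASCs replicate 1) and Vegfb between EASCs and PASCs from -0.11 to 0.02; without TMM scaling they were -0.49 and -0.13. The causes were not tested. Depth limits Angpt2 in PASCs, with 11 to 32 counts.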
